A study of Homo sapiens with 17 samples.

Results

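The 10 genes described here encode chemokines of the CXC class (CXCL1, CXCL2, CXCL3, CXCL5, CXCL8, CXCL10, CXCL11, CXCL14 and CXCL16) and the single member of the CX3C class (CX3CL1). They were taken by symbol from a table of 26457 RefSeq genes, and all 10 had at least 1 read. SW480 cells come from a human colon adenocarcinoma and express mutant p53 (mutp53). Poly(A) mRNA was sequenced from SW480 cells with a stable, doxycycline-inducible short hairpin RNA against LacZ (control) and from SW480 cells with one against p53 (mutp53-depleted), harvested at 0 h or following TNF-α (12.5 ng/ml) for 16 h. Cells of all 4 groups were grown with doxycycline at 1 µg/ml and puromycin at 1.5 µg/ml, so that the controls carried an induced hairpin too. Each group had 2 biological replicates, A and B. Each hairpin was carried by its own stable line, made in another laboratory, and whether these lines are clones is not given in the sources used here, so that an effect of depletion cannot be told apart from other differences between these lines. TNF-α was studied at 1 dose and 1 time.

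Chemokines are small secreted proteins that guide leukocytes through G protein-coupled receptors. CXC ligands with the tripeptide ELR before the first cysteines bind CXCR2 and recruit neutrophils, those without it that are induced by interferons bind CXCR3 and recruit T cells, and CXCL16 and CX3CL1 are made as transmembrane proteins that hold cells carrying CXCR6 or CX3CR1 until proteases release them. Many of these genes are textbook targets of NFκB, the transcription factor that TNF-α activates, and colon epithelial cells are a known source of several of them.

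The reads on genes numbered 6108488 to 13809578 per library. The values are normalized reads, which are the reads on the exons of a gene multiplied by 1 factor per library, with 1 read worth between 0.6701 and 1.515 normalized reads. The 6 colon epithelial markers (EPCAM, KRT8, KRT18, KRT19, CDH1 and CDX2) had 35563 to 96679 reads in sum per library. Of these, CDH1 was called lower after TNF-α in both lines (−2.51 ± 0.13 and −2.15 ± 0.13) and CDX2 in control cells (−1.07 ± 0.08), and EPCAM was called lower after depletion at 0 h (−1.29 ± 0.08) and 16 h (−1.06 ± 0.08). The part of these changes in the chemokine results was not tested. The 10 markers of leukocytes, endothelium and stroma had 6 to 53 in sum, and PTPRC, CD2, MS4A1, FCGR3A and DCN had none. Most of the reads on the second list were on CD14, a gene of monocytes, at 21.2 to 34.8 normalized reads in the control at 0 h and 4.94 to 15.1 in the other groups. In bulk RNA, fewer expressing cells and less RNA per cell cannot be told apart.

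Differences were tested with limma on log2(normalized reads + 1) over the 14800 genes whose mean reached 2.5 normalized reads. Calls required a 2-fold change or more and an adjusted p (Benjamini-Hochberg) below 0.05. The added 1 makes the fold change of a weakly expressed gene smaller than the ratio of its values. For the weakly expressed chemokines the ratio of the group's reads per library size is therefore given too, with an exact 95% interval that covers counting error only. Of the 10 chemokines 8 passed the filter, of which CXCL14 passed only through control cells at 0 h, where it was highest. CXCL10 and CXCL11 did not pass.

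The chemokine mRNAs differed widely in abundance. Per kb of exon, CXCL16 was the most abundant in all 4 groups, at 215 ± 22.4 normalized reads per kb (SD, n = 2) in control cells at 0 h. In these cells the next were CXCL14 at 8.43 ± 3.21, CXCL3 at 5.23 ± 3.82 and CX3CL1 at 2.36 ± 0.55, whose neighbouring ranges overlapped. CXCL1, CXCL5, CXCL2 and CXCL8 were at 0.21 to 0.61 per kb and their ranges overlapped as well. After 16 h of TNF-α the order in control cells below CXCL16 was CXCL1 (37.3 ± 3.64) and CXCL8 (29.7 ± 11.2), which overlapped, followed by CXCL3 (18.6 ± 0.04), CX3CL1 (17.0 ± 0.33), CXCL2 (7.01 ± 1.51), CXCL5 (5.03 ± 2.25) and CXCL11 (4.20 ± 1.65). CXCL5 overlapped both CXCL2 and CXCL11, which did not overlap each other. In mutp53-depleted cells at 0 h the second place was held by CX3CL1, at 18.8 ± 0.85 per kb, clear of the next gene, CXCL1, at 3.11 ± 2.77. In mutp53-depleted cells at 16 h it was held by CXCL8, at 39.0 ± 0.69 per kb, clear of CXCL1 at 19.4 ± 2.48.

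**Figure D1:**
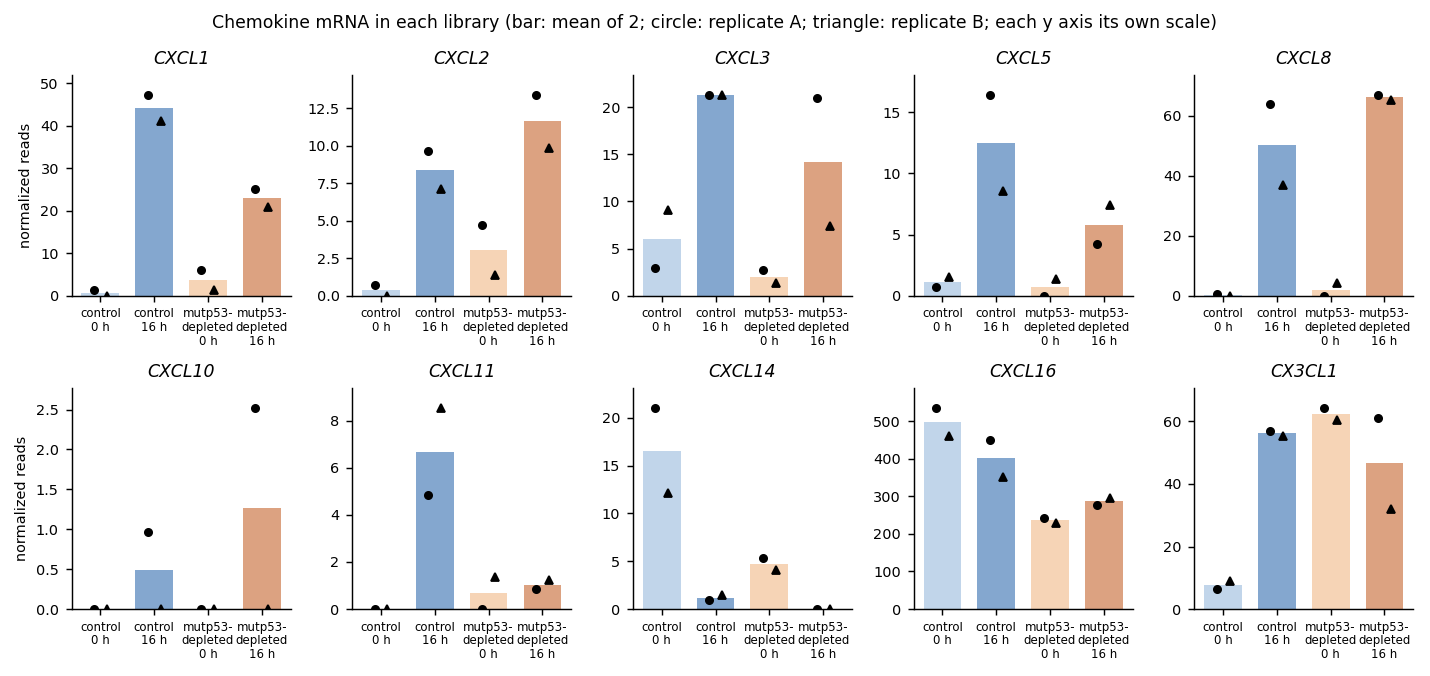
Normalized reads (y axis, linear and scaled separately for each gene) of the 10 chemokine genes in control and mutp53-depleted cells at 0 h and 16 h of TNF-α, with bars for the mean of 2 libraries, circles for replicate A and triangles for replicate B. CXCL1, CXCL2, CXCL3, CXCL5 and CXCL8 are higher at 16 h in both lines, CXCL14 is lower, and CX3CL1 is low only in control cells at 0 h, at 6.53 and 9.09 normalized reads.

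The share of each gene in the summed level per kb gives the same picture as a mixture. CXCL16 made up 92.9% and 92.0% of the sum in the 2 control libraries at 0 h and 75.8% and 78.2% in the mutp53-depleted ones, where CX3CL1 made up 14.1% and 14.4% in place of 0.79% and 1.27%. The 5 ELR+ ligands together made up 2.05% and 3.94% in control cells and 8.21% and 5.09% in mutp53-depleted cells at 0 h. At 16 h they made up 34.0% and 32.6% in control cells and 39.4% and 34.8% in mutp53-depleted cells. A share also moves with the level of the other genes, CXCL16 above all.

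**Figure D2:**
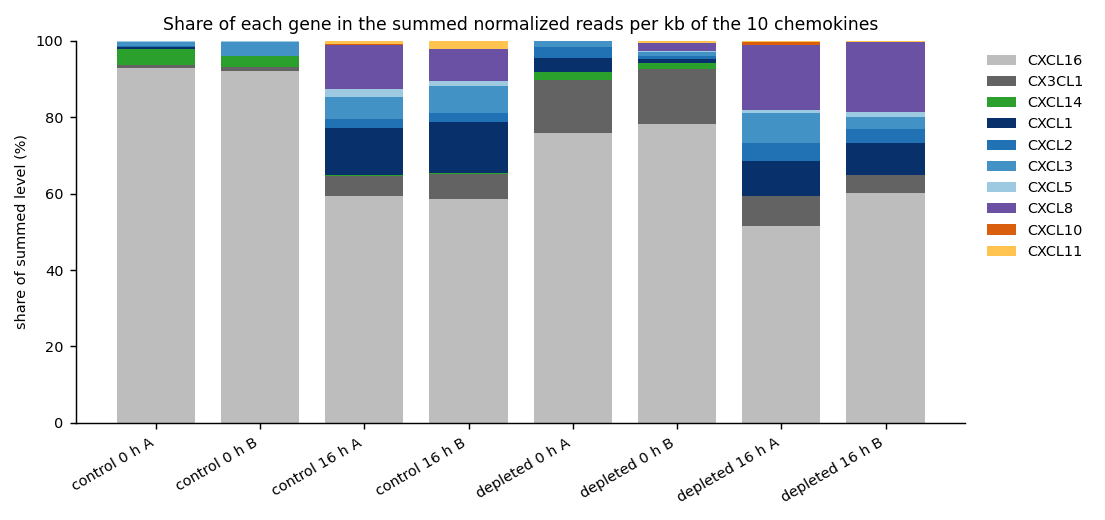
Share (y axis, in percent) of each of the 10 chemokine genes in their summed normalized reads per kb in each of the 8 libraries, as stacked bars. The ELR+ ligands (blue and purple) take 32.6% to 39.4% of the sum in the 4 libraries at 16 h against 2.05% to 8.21% at 0 h, and CX3CL1 (dark grey) takes 14.1% and 14.4% in mutp53-depleted cells at 0 h.

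The ELR+ ligands lie together on chromosome 4. In hg19, the build of the deposited coordinates, CXCL8 is at chr4:74606223-74609433 and CXCL1 at chr4:74735109-74737019, both on the + strand, and CXCL5 (chr4:74861359-74864446), CXCL3 (chr4:74902312-74904490) and CXCL2 (chr4:74962754-74964997) follow on the − strand. RefSeq promoters (GRCh38.p14) were at hand for 8 of the 10 chemokines, all but CXCL16 and CX3CL1. In the 250 bases before the annotated start, the letters GGAATTTCC, which form the core of a site for NFκB (κB), were found on either strand in 7 of these 8, all on chromosome 4, and in 0.413% of all 35116 RefSeq promoter windows of this length (145 windows). These letters were chosen after the promoters had been read. The 100 bases before the start of the 5 ELR+ genes are shown because these genes respond to TNF-α together, with the κB letters in capitals and each written 5′ to 3′ on the strand of its gene.
CXCL1: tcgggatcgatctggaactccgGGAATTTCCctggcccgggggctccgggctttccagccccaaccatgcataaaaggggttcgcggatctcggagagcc
CXCL2: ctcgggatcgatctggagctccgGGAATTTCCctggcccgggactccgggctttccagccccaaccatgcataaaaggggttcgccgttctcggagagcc
CXCL3: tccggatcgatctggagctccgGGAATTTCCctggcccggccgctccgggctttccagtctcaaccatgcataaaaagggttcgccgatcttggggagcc
CXCL5: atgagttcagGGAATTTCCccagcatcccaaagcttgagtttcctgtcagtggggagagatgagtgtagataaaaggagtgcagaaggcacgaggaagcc
CXCL8: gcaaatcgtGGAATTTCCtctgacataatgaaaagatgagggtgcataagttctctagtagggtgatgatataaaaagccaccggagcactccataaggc
These stretches are chr4:73869293-73869392 (+), chr4:74099196-74099295 (−), chr4:74038690-74038789 (−), chr4:73998678-73998777 (−) and chr4:73740469-73740568 (+). The κB letters begin 78 bases before the start in CXCL1 and CXCL3, 77 in CXCL2, 90 in CXCL5 and 91 in CXCL8. Over these 100 bases, compared without gaps, CXCL1 and CXCL3 had 90 identical bases, CXCL1 and CXCL2 73, and CXCL2 and CXCL3 67. The 7 pairs with CXCL5 or CXCL8 had 23 to 33. In CXCL2 the κB letters begin 77 and not 78 bases before the start. Without a gap, its bases from these letters upstream were compared out of register with those of CXCL1 and CXCL3. The counts therefore understate the likeness of CXCL2 to CXCL1 and CXCL3, and give no order among these genes. CXCL8 also held the AP-1 letters TGANTCA, 137 bases before the start. The AP-1 letters occur in 6.57% of all windows. A match of letters is a description of the sequence and not evidence of binding.

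The transcripts of CXCL1, CXCL2 and CXCL3, whose proteins are close relatives, also share sequence. Of the 50-base windows of the longest annotated transcript, the length of the reads, 5.3% of CXCL1, 10.1% of CXCL2 and 5.3% of CXCL3 occur in one of the other two, and none of CXCL8. Reads from these stretches could not be placed on 1 gene, and how they were counted is not given in the sources used here.

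The first question is how TNF-α changed these genes in cells with mutp53. In control cells all 5 ELR+ ligands rose at 16 h, and over all the chemokines tested 6 were called higher and 1 lower (CXCL14). The number called higher was 5 with DESeq2, without CXCL3, and 4 with a pseudocount of 0.1, without CXCL3 and CXCL5. Over all 14800 genes 2.97% were called higher and 4.27% lower. The median log2 fold change of the 5 ligands was 2.82 and that of all genes tested −0.05. Genes this close to 0 reads at 0 h pass the filter largely through their level at 16 h, so that their number is a description.

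CXCL8 (interleukin 8), the main neutrophil attractant of human tissues, was at 0.73 and 0 normalized reads in the control at 0 h and at 63.8 and 37.0 at 16 h. In mutp53-depleted cells it was at 0 and 4.11 normalized reads at 0 h and at 67.1 and 65.4 at 16 h. All libraries at 16 h lay far above all those at 0 h, and at 16 h the 2 lines lay apart but near each other. The log2 fold change of TNF-α was 5.24 ± 0.62 (SE) in control cells (adjusted p = 3.3e-06) and 4.89 ± 0.62 in mutp53-depleted cells (adjusted p = 9.1e-06). In reads, 1 became 92 in control cells, a ratio of 108 (18.9 to 4310), and 3 became 133 in mutp53-depleted cells, a ratio of 49.2 (16.5 to 241). The difference between the responses was −0.34 ± 0.87 (adjusted p = 0.91), which leaves room for a difference in either direction, and its sign changed without 3 of the libraries (its range over the 8 left-out libraries was −1.52 to 0.83). Depletion itself gave 0.44 ± 0.62 at 16 h (adjusted p = 0.58).

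CXCL1, a ligand of CXCR2 first known from melanoma cells, was at 1.45 and 0 normalized reads in the control at 0 h and at 47.4 and 41.3 at 16 h. In mutp53-depleted cells it was at 6.03 and 1.37 at 0 h and at 25.15 and 21.0 at 16 h. Both groups at 16 h were above both at 0 h, and the mutp53-depleted libraries at 16 h were both below the control ones. TNF-α raised it by 4.85 ± 0.57 on the log2 scale in control cells (adjusted p = 3.1e-06) and by 2.55 ± 0.57 in mutp53-depleted cells (adjusted p = 0.0025), or by 45.8 (12.2 to 384) and 5.21 (2.60 to 11.6) as ratios of reads. The difference between these responses was −2.30 ± 0.80 (unadjusted p = 0.011, adjusted p = 0.16) and was not called. The response of mutp53-depleted cells was not called without their replicate B at 0 h (1.77, adjusted p = 0.055).

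CXCL2 and CXCL3 are the nearest relatives of CXCL1. CXCL2 was at 0.73 and 0 normalized reads in the control at 0 h and at 9.67 and 7.11 at 16 h. After depletion of mutp53 it was at 4.69 and 1.37 and then at 13.4 and 9.87. CXCL3 was at 2.90 and 9.09 and then at 21.3 and 21.3 in control cells, and at 2.68 and 1.37 and then at 21.0 and 7.40 in mutp53-depleted cells. In each line both genes were higher in both libraries at 16 h than in both at 0 h, and CXCL3 was the ELR+ ligand with the highest level per kb in control cells before TNF-α. The log2 fold changes were 2.82 ± 0.64 for CXCL2 (adjusted p = 0.0028) and 1.83 ± 0.58 for CXCL3 (adjusted p = 0.025) in control cells, and 1.77 ± 0.64 (adjusted p = 0.048) and 2.20 ± 0.58 (adjusted p = 0.0080) in mutp53-depleted cells. As ratios of reads, CXCL2 changed by 17.6 (2.71 to 741) in control and 3.33 (1.45 to 8.57) in mutp53-depleted cells, and CXCL3 by 4.34 (2.12 to 9.79) and 6.88 (2.65 to 22.7). The call of CXCL3 in control cells was lost with DESeq2 (2.01, adjusted p = 0.065) and with a pseudocount of 0.1 (2.03, adjusted p = 0.055). It was also lost without control replicate A at 0 h (1.14), replicate A at 16 h (1.83, adjusted p = 0.098) or replicate B at 16 h (1.83, adjusted p = 0.10), and in mutp53-depleted cells without replicate B at 0 h (1.88) or replicate A at 16 h (1.51). The call of CXCL2 in mutp53-depleted cells was lost without replicate B at 0 h (1.14), without replicate A (1.57) or B (1.97) at 16 h, and without control replicate A (1.77, adjusted p = 0.057) or B (1.77, adjusted p = 0.055) at 16 h.

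CXCL5, an ELR+ ligand known from epithelial cells, was at 0.73 and 1.51 normalized reads in the control at 0 h and at 16.4 and 8.54 at 16 h. In mutp53-depleted cells it was at 0 and 1.37 and then at 4.19 and 7.40. The groups at 16 h did not overlap those at 0 h, and the mutp53-depleted libraries at 16 h were both under the control ones. The log2 fold changes of TNF-α were 2.63 ± 0.69 (adjusted p = 0.0081) and 2.10 ± 0.69 (adjusted p = 0.030), with read ratios of 13.5 (3.33 to 118) and 12.2 (1.77 to 525). Depletion gave −0.97 ± 0.69 at 16 h (adjusted p = 0.26). The call in control cells was lost without their replicate A at 0 h (2.36, adjusted p = 0.056) or at 16 h (2.19, adjusted p = 0.088), and that in mutp53-depleted cells without replicate A at 0 h (1.48) or replicate B at 16 h (1.75).

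In mutp53-depleted cells, therefore, limma again called all 5 ELR+ ligands higher after TNF-α and no other chemokine, and called CXCL14 lower. Not all 5 calls held under the alternatives. With DESeq2 those of CXCL2 (1.89, adjusted p = 0.19) and CXCL5 (3.63, adjusted p = 0.1) were lost. With a pseudocount of 0.1 those of CXCL1 (2.94, adjusted p = 0.057) and CXCL2 (2.13, adjusted p = 0.19) were lost. CXCL5 was also lost with a pseudocount of 5 (0.92, adjusted p = 0.053). CXCL2 was also lost with the median depletion effect of its nearest tested genes removed (1.72, adjusted p = 0.056). Over all genes tested 1.86% were called higher and 4.5% lower. In sum the 5 genes were at 6.54 and 10.6 normalized reads in the control at 0 h, 159 and 115 at 16 h, 13.4 and 9.59 in the depleted line at 0 h, and 131 and 111 at 16 h. The summed levels of the 2 lines overlapped at both times. None of the 5 was called in the comparison of the lines at 16 h, in which the log2 fold changes ran from −0.97 (CXCL5) to 0.44 (CXCL8) with standard errors of 0.57 to 0.69, and limma left room for differences in either direction. For CXCL1 the ratio of reads at 16 h was 0.523 (0.356 to 0.760), and edgeR's quasi-likelihood and exact tests gave −0.94 (adjusted p = 0.018 and 0.0045), which passed the adjusted p but not the fold of 2, whereas DESeq2 gave an adjusted p of 0.16. For CXCL5 the ratio was 0.415 (0.183 to 0.886), and the adjusted p was 0.081 and 0.087 with the edgeR tests and 0.39 with DESeq2. None of the 5 was called in the interaction either. Over all genes tested, 5.03% were called higher and 10.2% lower between the lines at 16 h, and 0.655% and 2.21% in the interaction. With only 5 genes, no call is close to these shares and is not a result about the ligands.

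**Figure D3:**
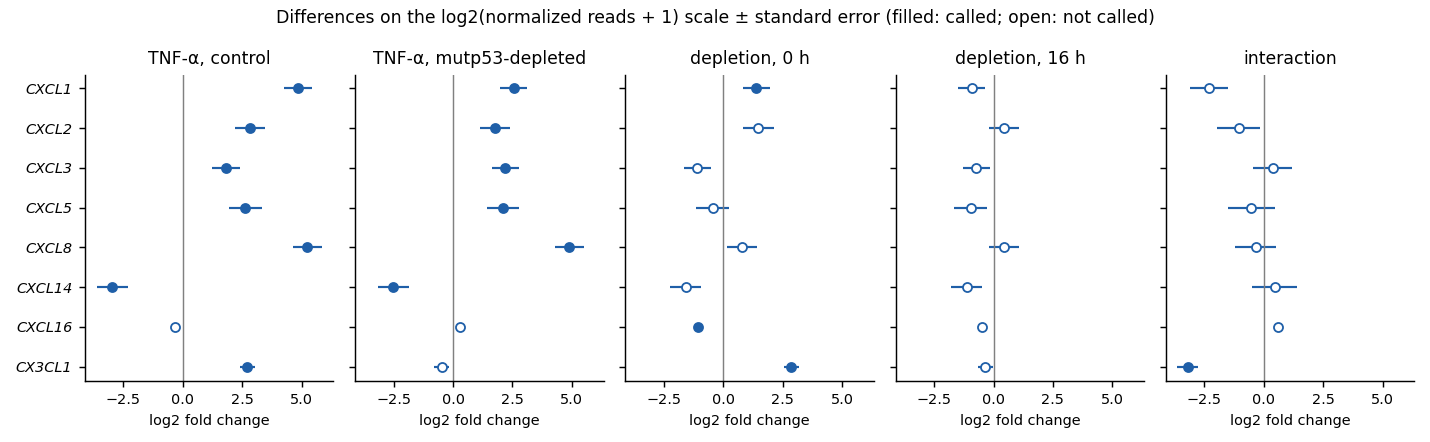
Log2 fold changes (x axis) of the 8 tested chemokine genes on the log2(normalized reads + 1) scale, with bars for the standard error and filled points for genes called, in the response to TNF-α of each line, in depletion at each time and in the interaction. The 5 ELR+ ligands lie between 1.77 and 5.24 in both TNF-α panels, and CX3CL1 lies at 2.72 in control and −0.48 in mutp53-depleted cells.

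The κB letters were also found in the promoters of the ligands of CXCR3, CXCL10 and CXCL11, there on the opposite strand. These sequences are shown for comparison with those of the ELR+ genes, 200 bases of CXCL10, whose match begins 176 bases before the start, and 100 of CXCL11, whose match begins 75 bases before it.
CXCL10: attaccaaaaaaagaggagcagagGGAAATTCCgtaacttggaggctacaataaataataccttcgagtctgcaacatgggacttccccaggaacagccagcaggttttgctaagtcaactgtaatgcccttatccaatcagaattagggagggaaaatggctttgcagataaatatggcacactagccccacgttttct
CXCL11: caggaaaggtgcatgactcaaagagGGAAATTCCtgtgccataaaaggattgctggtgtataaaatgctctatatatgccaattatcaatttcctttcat
They are chr4:76023498-76023697 (−) and chr4:76036071-76036170 (−) in GRCh38.p14. CXCL10 also held the interferon-stimulated response element (ISRE), present in 3.02% of all windows, 221 bases before the start on the opposite strand, and CXCL11 the AP-1 letters 87 bases before it.

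**Figure D4:**
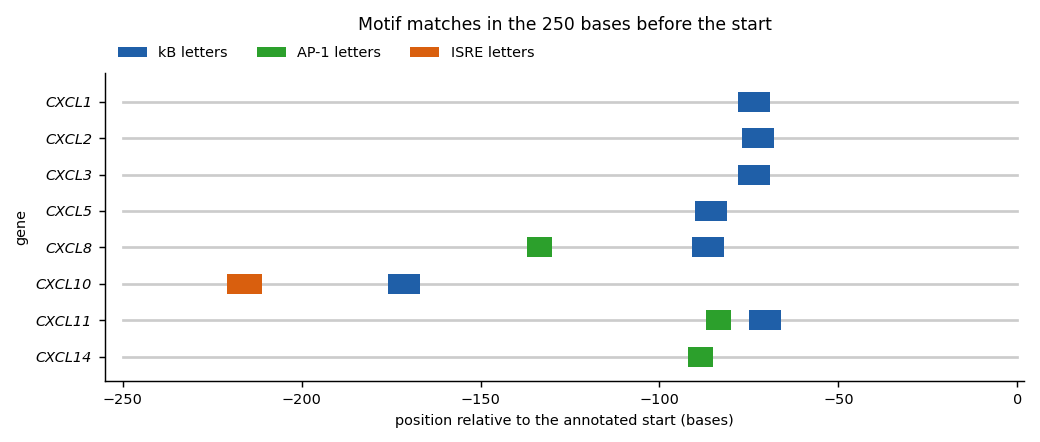
Positions (x axis, bases before the annotated start) of the κB, AP-1 and ISRE letters in the promoters of 8 chemokine genes, 1 line per gene. The κB letters begin 75 to 91 bases before the start in 6 genes and 176 bases before it in CXCL10, and none were found in this window of CXCL14.

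CXCL10 and CXCL11 attract activated T cells and are strongly induced by interferons in many tissues. CXCL10 (hg19 chr4:76942269-76944689) had 4 reads in all, 1 in control replicate A at 16 h and 3 in mutp53-depleted replicate A at 16 h. A difference in CXCL10 was not detectable at this depth. CXCL11 (hg19 chr4:76954840-76957350) had no read in control cells at 0 h and 5 and 6 reads at 16 h, or 4.83 and 8.54 normalized reads. With 3 reads over the group put in place of none at 0 h, the level at 16 h was 4.30-fold higher. Counting error in the 11 reads at 16 h was left out, so that this value is not a lower bound. In mutp53-depleted cells CXCL11 had 0 and 1 read at 0 h and 1 and 1 at 16 h, so that the control libraries at 16 h were above all 6 others. Between the lines at 16 h, 11 reads stood against 2, a ratio of 0.158 (0.017 to 0.723). With no filter on low values, limma called CXCL11 higher after TNF-α in control cells (adjusted p = 0.0018) and lower in mutp53-depleted cells at 16 h (adjusted p = 0.013). The edgeR quasi-likelihood test with no filter gave adjusted p-values of 0.019 and 0.11, and the interaction was called by neither, at 0.15 and 0.75.

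CXCL14, a chemokine made constitutively by many normal epithelia, went the other way. It was at 21.05 and 12.1 normalized reads in the control at 0 h, 0.97 and 1.42 at 16 h, 5.36 and 4.11 in mutp53-depleted cells before TNF-α, and 0 in both libraries at 16 h. No group overlapped another, and the order from high to low was control at 0 h, mutp53-depleted at 0 h, control at 16 h and mutp53-depleted at 16 h. The log2 difference after TNF-α was −2.96 ± 0.66 in control cells (adjusted p = 0.0023), where 37 reads became 2, a 15.8-fold lower level (4.07 to 135). It was −2.51 ± 0.66 in mutp53-depleted cells (adjusted p = 0.0079), where 11 reads became 0. With 3 reads put in place of this 0, the level was 3.31-fold lower, a value that leaves out counting error in the 11 reads. Since control cells at 0 h are the group through which CXCL14 passed the filter, the difference in control cells is a description. With no filter on low values limma called it lower in both lines (adjusted p = 8.3e-04 and 0.0030). The calls with the filter were lost without control replicate A at 0 h (−2.59, adjusted p = 0.050) and without mutp53-depleted replicate A at 0 h (−2.35, adjusted p = 0.067). Depletion at 0 h gave −1.58 ± 0.66 (adjusted p = 0.052), with 37 reads against 11, a ratio of 0.273 (0.125 to 0.546), and was not called, whereas edgeR's quasi-likelihood test called it (−1.86, adjusted p = 0.0036). This comparison too holds the group through which CXCL14 passed the filter, so that both values are descriptions. With no filter on low values the adjusted p was 0.022 with limma and 0.0058 with edgeR's quasi-likelihood test. Its promoter, the only one of the 8 without the κB letters in this window, is shown for that contrast (chr5:135578992-135579091, − strand, GRCh38.p14). The AP-1 letters begin 92 bases before its start.
CXCL14: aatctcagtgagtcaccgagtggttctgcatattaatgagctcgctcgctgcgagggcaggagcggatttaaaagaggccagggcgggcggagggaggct
The gene lies on chromosome 5 (hg19 chr5:134906371-134914969), away from the other CXC genes.

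CX3CL1 (fractalkine), the transmembrane ligand of CX3CR1, had the largest log2 fold change between the lines at 0 h among the chemokines tested. It was at 6.53 and 9.09 normalized reads (9 and 6 reads) in control cells at 0 h and at 57.0 and 55.5 at 16 h. In mutp53-depleted cells it was at 64.3 and 60.3 already at 0 h and at 61.2 and 32.1 at 16 h. Control cells at 0 h were thus far below the 3 other groups, of which control cells at 16 h and both groups of mutp53-depleted cells lay close together apart from mutp53-depleted replicate B at 16 h. Depletion raised CX3CL1 by 2.86 ± 0.31 on the log2 scale at 0 h (7.26-fold, adjusted p = 4.3e-07), and TNF-α raised it by 2.72 ± 0.31 in control cells (6.57-fold, adjusted p = 2.3e-06). In mutp53-depleted cells TNF-α gave −0.48 ± 0.31 (adjusted p = 0.28), and depletion at 16 h gave −0.34 ± 0.31 (adjusted p = 0.39), neither of them called. The interaction, the response of mutp53-depleted cells less that of control cells, was −3.20 ± 0.44 (adjusted p = 2.9e-04), against 2.21% of all genes called lower in it and 0.655% called higher. It lay between −3.65 and −2.74 when any 1 library was left out and was called each time. The 3 differences from control cells at 0 h share those 2 libraries, which hold 15 reads of the gene in all.

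CXCL16, the transmembrane ligand of CXCR6 and a scavenger receptor for oxidized lipoproteins, was the most abundant chemokine mRNA and so the most precisely measured. It was at 536 and 462 normalized reads in the control at 0 h and at 450 and 353 at 16 h, and at 243 and 230 in the depleted line at 0 h and 278 and 296 at 16 h. All 4 mutp53-depleted libraries were below all 4 control libraries. Depletion lowered CXCL16 by −1.07 ± 0.12 at 0 h (2.10-fold, adjusted p = 5.4e-07). At 16 h the difference was −0.47 ± 0.12 (1.39-fold, adjusted p = 0.0028), which passed the adjusted p but not the fold of 2. TNF-α gave −0.32 ± 0.12 in control cells (adjusted p = 0.055) and 0.28 ± 0.12 in mutp53-depleted cells (adjusted p = 0.092), and the difference between them was 0.60 ± 0.17 (adjusted p = 0.066) and was not called. The call at 0 h rests on the fold: without control replicate A at 0 h the log2 fold change was −0.96 (adjusted p = 6.9e-05).

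The second question is which of these genes differed with mutp53 depletion before TNF-α. At 0 h, CX3CL1 and CXCL1 were called higher and CXCL16 lower in mutp53-depleted cells, where 5.89% of all genes were called higher and 9.55% lower. CXCL1 rested on 2 reads against 10, a ratio of 4.59 (0.977 to 43.1), with a log2 fold change of 1.38 ± 0.57 (adjusted p = 0.049) and groups that overlapped, and it was not called in 15 of 19 alternatives. These include the fits without control replicate B (0.74) or mutp53-depleted replicate A (0.60) at 0 h, and without each of the 4 libraries at 16 h (1.38, adjusted p from 0.058 to 0.073). CXCL2 was not called, at 1.48 ± 0.64 (adjusted p = 0.06). It rested on 1 read against 8, a ratio of 7.34 (0.984 to 326), and its groups did not overlap. At 16 h no chemokine tested was called in either direction by limma, where 5.03% of all genes were called higher and 10.2% lower. Of the 8 tested, CXCL16 alone had an unadjusted limma p under 0.05. The edgeR quasi-likelihood and exact tests and DESeq2 made no call at 16 h either.

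The genes called at 0 h were also set beside their neighbours on the chromosome. CX3CL1 (hg19 chr16:57406373-57418960) was higher after depletion at 0 h than all 50 of its nearest tested neighbours, whose log2 fold changes ran from −3.37 to 1.88 with a median of −0.04, and its call was kept when the median of its neighbourhood was removed (2.94, adjusted p = 6.5e-07). Of these 50 genes 6 were called lower and 1 higher. Next to the start of CXCL16 (hg19 chr17:4636824-4643223) begins ZMYND15, which is transcribed the other way (hg19 chr17:4643310-4649414), and ZMYND15 (−1.96), TM4SF5 (−3.96) and VMO1 (−1.99), the 3 genes next to it on that side, were all called lower at 0 h. These 3 are named after their values were seen. Of the 50 tested neighbours of CXCL16, 7 were called lower and none higher, with a median of −0.12. The counts of the 2 regions were thus close to each other, beside 9.55% of all genes called lower. With the median of its neighbourhood removed, CXCL16 was at −0.96 (adjusted p = 3.9e-06) and no longer reached a fold of 2. Around CXCL1 the 46 neighbours that are not chemokines of the set had a median of 0.12, and the 5 ELR+ ligands lay on both sides of it, from −1.09 (CXCL3) to 1.48 (CXCL2).

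**Figure D5:**
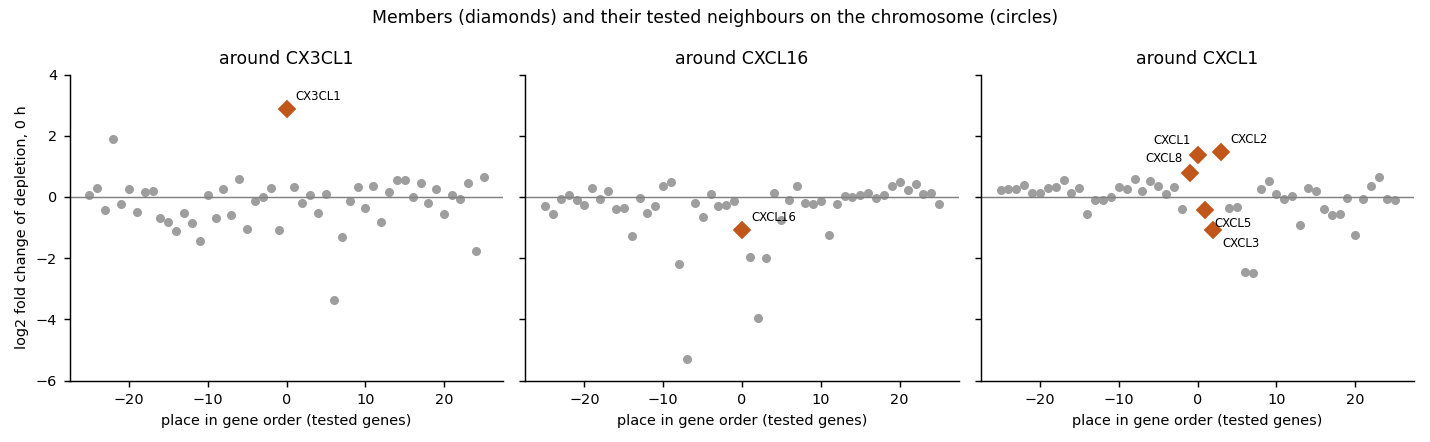
Log2 fold change of depletion at 0 h (y axis) of CX3CL1, CXCL16 and the ELR+ cluster (diamonds) and of the nearest tested genes (circles), in the order of their position on the chromosome (x axis, rank from CX3CL1, CXCL16 or CXCL1). CX3CL1, at 2.86, is above all 50 neighbours, of which 6 were called lower, and CXCL16, at −1.07, has 7 neighbours called lower among 50.

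The other genes of the system give the setting in which these ligands were expressed. Of 8 further CXC ligands, only CXCL6, the ELR+ neighbour of CXCL8, had reads, namely 1 and 0 in control cells at 0 h, 9 and 2 at 16 h, none in the depleted line at 0 h, and 6 and 2 at 16 h. CXCL9, CXCL12, CXCL13, CXCL17, PF4, PF4V1 and PPBP had none. Of 9 receptors 4 could be tested. CXCR2, the receptor of the ELR+ ligands, was at 0 in both control libraries at 0 h and at 14.5 and 18.5 normalized reads at 16 h. After depletion of mutp53 it was at 0 and 1.37 and then at 4.19 and 4.94. CXCR2 passed the filter only through control cells at 16 h, so that its higher level there, 15 and 13 reads against none at 0 h, is a description, and it was called in none of the other comparisons. CXCR4, the receptor of CXCL12, was at 762 and 558 normalized reads in control libraries and at 227 and 199 in mutp53-depleted cells at 0 h, and was called lower after depletion at 0 h (−1.61 ± 0.17) and at 16 h (−1.87 ± 0.17). CXCR6, the receptor of CXCL16, was called higher after depletion at 0 h (1.52 ± 0.48, adjusted p = 0.013), at 5.08 and 7.57 normalized reads against 14.7 and 26.05. CX3CR1, the receptor of CX3CL1, had no read.

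Of the proteases that act on these chemokines, ADAM10 and ADAM17, which release CXCL16 and CX3CL1 from the membrane, were not called in any comparison. MMP9, which trims CXCL8, was called higher after TNF-α in control (8.01 ± 0.46) and mutp53-depleted cells (7.0 ± 0.46) and lower after depletion at 16 h (−1.47 ± 0.46, adjusted p = 0.012). Of 11 NFκB subunits and inhibitors, 9 were called higher after TNF-α in control cells and 6 in the depleted line, and 8 of the 11 (NFKB1, NFKB2, REL, RELB, NFKBIA, NFKBIE, BCL3 and TNFAIP3) were called lower in the interaction. Before TNF-α, depletion gave higher calls for 4 of the 11, namely NFKBIB (1.40 ± 0.09), NFKBIZ (1.35 ± 0.31), TNFAIP3 (1.32 ± 0.29) and BCL3 (1.05 ± 0.20), and at 16 h a lower call for RELB (−1.07 ± 0.12). Over all genes tested, 2.97% were called higher after TNF-α in control and 1.86% in mutp53-depleted cells, and 2.21% lower in the interaction. After depletion 5.89% were called higher at 0 h and 10.2% lower at 16 h, and 1 of 11 at 16 h is near that share. NFKBIA, the inhibitor whose loss frees NFκB, gave 3.78 ± 0.10 in control and 2.35 ± 0.10 in mutp53-depleted cells. Of 8 IRF and STAT factors, which act on interferon-driven genes such as CXCL10 and CXCL11, IRF1 was called higher in both lines (1.59 ± 0.09 and 1.06 ± 0.09) and IRF2 in control cells (1.05 ± 0.11). In the interaction 4 of the 8 were called lower, IRF1 (−0.53 ± 0.13), IRF2 (−0.84 ± 0.16) and IRF3 (−0.46 ± 0.11) among them, and IRF3 was called lower after depletion at 16 h (−1.14 ± 0.08). The shares over all genes are those just given, and 1 of 8 lower at 16 h is again near 10.2%. Of 7 factors that bind the AU-rich elements or structures of chemokine mRNAs and govern their decay, ZC3H12A was called higher after TNF-α in control cells (1.40 ± 0.14) and no other was called in any comparison.

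Finally, genes with a course over the 8 libraries like that of a chemokine were sought among 13119 genes whose mean reached 10 normalized reads, by Pearson's r of log2(normalized reads + 1). For CXCL8 these were TMEM265 (0.986), TRIM47 (0.984) and FBRS (0.983), and for CX3CL1 BTN3A2 (0.970), ITCH (0.970) and ISG20 (0.969). ISG20, a nuclease induced by interferons, was on average at 8.1 normalized reads in the control at 0 h and at 34.5, 36.2 and 37.2 in the 3 other groups. The 8 points fall into 4 groups and are shared by all genes, so that these values are descriptions. CXCL10 had reads in only 2 libraries, and its likeness to other genes is not given.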

How the data were processed

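The mRNA-seq libraries came from 4 groups of 2 biological replicates, whose letters A and B come from the table's column names alone. Single-end reads of 50 bases were aligned by the authors (STAR), and those on exons of RefSeq genes were counted (HOMER) on the strand that the dUTP libraries mark. The other assays of the series were not used here. The signal values the authors deposited, called normalized reads, are these reads times a factor of the library that makes all totals equal. Whole reads were recovered for 100% of the values in each library (tolerance 0.1 read). The table's header and coordinates give hg19, whereas the methods name hg38. The log2 fold changes and p-values that the authors deposited for 4 comparisons were not used.

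The 10 genes and all gene lists were chosen with earlier results of these data known. As log2(value + 1), values of genes whose mean reached 2.5 were fitted with a model of 4 group means in limma 3.58.1 (R 4.3.3), with a trend in the moderated variance. P-values were adjusted (Benjamini-Hochberg) over all 14800 genes, and the interaction was called at the adjusted p alone. Named genes were the 10 chemokines, the members of the lists and the 3 genes most like CXCL8, CXCL10 and CX3CL1. The level of the gene targeted by the hairpin and that of 1 list member are not reported here. Alternatives were median-ratio scaling, no filter, a minimum mean of 10, a pseudocount of 0.1 or 5, a replicate block, edgeR 4.0.16 (quasi-likelihood and exact tests) and DESeq2 1.42.0 on the recovered reads, removal of the median depletion effect of the 51 nearest tested genes, and leaving out each library. The edgeR quasi-likelihood test with no filter was added after seeing the data. Promoters are those of RefSeq (GRCh38.p14), without the bases after the start, and shared windows were counted in GENCODE transcripts. The limma and edgeR quasi-likelihood tests were tried on simulated data first, and the edgeR exact test and DESeq2 were not. Plots were made with matplotlib 3.10.9.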

Additional observations from a re-analysis of the deposited data

Results flagged for a closer look

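The response of CX3CL1 to TNF-α differed between the lines. The interaction on the log2(normalized reads + 1) scale was -3.20 ± 0.44 (SE), with an adjusted p of 2.9e-04 by limma. Both control libraries at 16 h were above both at 0 h (57.0 and 55.5 against 6.53 and 9.09 normalized reads), whereas the mutp53-depleted libraries at 16 h (61.2 and 32.1) overlapped those at 0 h (64.3 and 60.3). In mutp53-depleted replicate B at 16 h, the lower of that pair, 26 reads were counted, and without it the interaction was -2.74. The cause of the higher level before TNF-α was not tested.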

How the results depend on the processing

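Over the 8 tested chemokines and 5 comparisons there were 729 alternative values, of which 651 kept their direction and call, 44 lost a call, 19 gained one and 15 changed sign. CX3CL1 kept its calls after depletion at 0 h, after TNF-α in control cells and in the interaction under all alternatives run. CXCL1 and CXCL8 kept theirs after TNF-α in control cells, and CXCL8 also in mutp53-depleted cells. CXCL2 kept its call in control cells wherever it was tested, which excludes the minimum mean of 10. Raising the minimum mean to 10 left 5 chemokines to test, so that after TNF-α the number called lower was 0 in either line, the number called higher in mutp53-depleted cells was 3 and the number higher after depletion at 0 h was 1. The number called higher in mutp53-depleted cells was also 3 with a pseudocount of 0.1, without CXCL1 and CXCL2. With DESeq2 it was 3 as well, without CXCL2 and CXCL5. It was 4 with a pseudocount of 5, without CXCL5, and with the regional shift removed, without CXCL2. The number called lower in mutp53-depleted cells was 0 with a pseudocount of 5. After depletion at 0 h only CX3CL1 was called higher (1 in place of 2) with median-ratio scaling, no filter, a pseudocount of 5, both edgeR tests, DESeq2, edgeR with no filter and the regional shift removed, and 2 were called lower in place of 1 with no filter, a pseudocount of 5, both edgeR tests and edgeR with no filter, where CXCL14 was added. With a pseudocount of 0.1, 3 were called higher after depletion at 0 h. After depletion at 16 h, 1 was called lower with no filter (CXCL11) and 1 with a pseudocount of 0.1 (CXCL14). In the interaction 1 (CXCL16) was called higher with edgeR's quasi-likelihood test, with and without the filter, and in the replicate block. Leaving out 1 library at a time gave 4 to 6 called higher and 0 to 1 lower after TNF-α in control cells, 2 to 5 and 0 to 1 in mutp53-depleted cells, 1 to 3 and 1 to 2 after depletion at 0 h, 0 and 0 at 16 h, and 0 to 1 and 1 in the interaction. None of the values that changed sign was called. These were the interaction of CXCL14 with a pseudocount of 0.1 (-1.93), edgeR's quasi-likelihood test with (-1.53) and without the filter (-1.54) and DESeq2 (-0.81), against 0.45, the interaction of CXCL5 with a pseudocount of 0.1 (0.52, against -0.53) and that of CXCL8 with a pseudocount of 5 (0.07, against -0.34). With 1 library left out, the interaction ran from -0.32 to 1.06 for CXCL3, from -1.15 to 0.09 for CXCL5 and from -1.52 to 0.83 for CXCL8, depletion at 0 h from -1.06 to 0.19 for CXCL5 and from -0.40 to 1.96 for CXCL8, and depletion at 16 h from -0.79 to 0.12 for CX3CL1. The causes were not tested.

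The correlations of the deviations of same-letter libraries lay between -0.019 and 0.074 over 14800 genes. These low values cannot exclude that the letters A and B pair the samples, since an effect shared by a part of the genes could be missed. Over all genes the replicate block called 153 higher and 406 lower in the interaction, against 97 and 327 without it. The replicate block called 6 chemokines higher after TNF-α in control cells and 5 in the depleted line, as without it, and added CXCL16 in the interaction (0.60, adjusted p = 0.030). At this depth the ELR+ ligands had 1 to 10 reads per group at 0 h, and CXCL10 and CXCL11 were too low to be tested with the filter. The edgeR exact test gave no interaction, and the regional shift could not be removed from the comparison within control cells.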
